A study of Mus musculus with 46 samples.

Results

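The 6 genes described here encode proteins of the vessel wall, and they were followed in the dorsal raphe nucleus of hybrid mice. They are Kdr (ENSMUSG00000062960), Flt1 (ENSMUSG00000029648), Tek (ENSMUSG00000006386), Pecam1 (ENSMUSG00000020717), Nid1 (ENSMUSG00000005397) and Fn1 (ENSMUSG00000026193). They were chosen by symbol, with earlier results of these data known, and not by a threshold on their values. All 6 were among the 15499 genes of the tables. Kdr and Flt1 lie on mouse chromosome 5, Tek on chromosome 4, Pecam1 on chromosome 11, Nid1 on chromosome 13 and Fn1 on chromosome 1. RNA-seq libraries came from female F1 mice that carry a CAST and a C57 allele of each autosomal gene, bred as reciprocal crosses named F1i and F1r. There were 7 F1i and 7 F1r libraries at postnatal day 5 (P5), 7 and 7 at P15, and 9 and 9 from adults. The labels name no treatment and no engineered allele, and the maternal strain of each cross is not stated. Nor is it stated whether each library came from a separate animal, and each adult library carries a pair of numbers, so p-values measure the spread between these libraries.

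The dorsal raphe nucleus is the largest group of serotonin neurons in the brainstem, and its vessels, like those of the rest of the brain, grow and mature after birth. VEGF-A from neural tissue drives sprouting through Kdr (VEGFR2) on endothelial cells, while Flt1 (VEGFR1) binds the same ligand tightly, signals weakly and also exists as a secreted decoy. Tek (Tie2) receives the angiopoietins, which steady or loosen a formed vessel, and Pecam1 joins neighbouring endothelial cells and is also carried by platelets and leukocytes. Endothelial cells and pericytes share a basement membrane in which Nid1 (nidogen-1) ties laminin to collagen IV, and Fn1 (fibronectin) is the glycoprotein to which integrins of growing vessels attach. Nid1 and Fn1 are also made by mural cells, fibroblasts and other cells.

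Promoter sequences are shown for the receptors Kdr, Flt1 and Tek and for Nid1, whose levels changed with age to unequal degrees. The set of RefSeq promoters used here (GRCm38.p6) held 4 of the 6 genes and had no entry for Pecam1 and Fn1. Each window is the 250 bases before the annotated start, read 5′ to 3′ on the strand of the gene. Capitals mark a GC box (GGGCGG on either strand) or a TATA box (TATAAA on either strand), and no match overlapped another.
Kdr: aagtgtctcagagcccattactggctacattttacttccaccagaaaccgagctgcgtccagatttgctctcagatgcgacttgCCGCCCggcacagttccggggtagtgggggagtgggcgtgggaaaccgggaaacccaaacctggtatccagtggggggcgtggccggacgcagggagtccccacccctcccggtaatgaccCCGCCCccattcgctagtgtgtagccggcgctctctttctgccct
Flt1: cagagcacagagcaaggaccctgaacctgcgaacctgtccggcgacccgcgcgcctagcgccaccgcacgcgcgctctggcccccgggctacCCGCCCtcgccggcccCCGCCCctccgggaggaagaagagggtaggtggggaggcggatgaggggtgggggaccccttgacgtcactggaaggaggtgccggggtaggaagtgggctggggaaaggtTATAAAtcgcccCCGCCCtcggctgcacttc
Tek: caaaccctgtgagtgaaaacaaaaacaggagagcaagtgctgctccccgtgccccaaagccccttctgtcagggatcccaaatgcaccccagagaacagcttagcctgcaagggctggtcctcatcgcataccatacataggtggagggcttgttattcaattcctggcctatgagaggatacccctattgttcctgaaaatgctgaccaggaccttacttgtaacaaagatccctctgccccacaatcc
Nid1: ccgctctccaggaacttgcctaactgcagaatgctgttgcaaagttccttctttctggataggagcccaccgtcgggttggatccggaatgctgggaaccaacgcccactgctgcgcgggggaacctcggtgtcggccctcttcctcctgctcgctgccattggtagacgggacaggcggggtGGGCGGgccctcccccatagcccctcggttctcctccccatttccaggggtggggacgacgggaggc
The windows are chr5:75978456-75978705 on the minus strand for Kdr, chr5:147726012-147726261 on the minus strand for Flt1, chr4:94739039-94739288 on the plus strand for Tek and chr13:13437352-13437601 on the plus strand for Nid1. Kdr held 2 GC boxes, Flt1 held 3 and a TATA box, Nid1 held 1 and Tek held neither motif. Of 32851 RefSeq windows of this length, 32.7% held a GC box and 12.4% a TATA box. Strict forms of an ETS site (CGGAAG, in 13.6% of windows), a GATA site (AGATAA, in 10%) and an E box (CACGTG, in 6.0%) were searched on both strands too. None of the 4 windows held these exact letters. Shorter or variant forms of the sites were not searched, so their absence is not shown. A match describes these letters and marks no binding site. G and C made up 61.6% of the Kdr window, 70.4% of the Flt1 window, 51.2% of the Tek window and 64.4% of the Nid1 window.

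Libraries held 3692778 to 13085952 counted reads, of which the CAST allele took 50.1% to 52.2%. Levels are in CPM, the sum of both alleles scaled to the counted reads of the library. The tables hold reads assigned to an allele, so a level can be compared between libraries for a gene but not between genes. The serotonergic markers Tph2, Slc6a4 and Fev were present in every library, with lowest levels of 81.0, 140 and 16.0 CPM. The endothelial markers Cdh5 and Cldn5 were present in every library as well, with lowest levels of 7.42 and 2.45 CPM. Each age has a table of its own, and age and library set cannot be told apart. Libraries also departed from their group means in step with transcript GC content, by a correlation across genes, which are not independent replicates. It ran from -0.33 to 0.24 at P5, from -0.49 to 0.48 at P15 and from -0.79 to 0.51 in adults. At a split of 0.3 chosen after the data were seen, 5 of 14 P15 libraries (F1i replicates 1, 2 and 5 and F1r replicates 1 and 3) lay above and are called GC-high, 6 lay below -0.3 and are called GC-low, and 3 lay between. In adults 9 of 18 were GC-high and 6 GC-low, at P5 0 and 1. Leaving out both kinds would leave no F1i library at P15, so fitted results were recomputed without each kind in turn and are given where they differ.

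All 6 genes were lower in adults than at P5, by 1.37-fold for Flt1 up to 11.5-fold for Kdr. In edgeR's quasi-likelihood test with Benjamini-Hochberg adjustment (threshold 0.05), adult over P5 called 6 of 6, where 82.1% of 13637 genes were called and 41.5% were called lower. Kdr, Nid1 and Fn1 also fell by 1 or more on the log2 scale, as did 10.2% of genes. The median log2 change of the 6 was -1.97, beside -0.0047 for all genes. The 6 were picked with earlier results of these data known, so this contrast of medians is a description. P15 over P5 called 6 of 6, with 4 lower and 2 higher (4 of 6 without the GC-low P15 libraries), where 83.4% of genes were called, 40.9% lower and 42.5% higher. Adult over P15 called 6 of 6, with 5 lower and 1 higher (5 of 6 without the same libraries), where 74.7% were called, 37.7% lower and 37.0% higher. Age calls were common among all genes, so a call by itself is not particular to these 6. The share of all genes whose ranges of level or CAST share did not overlap between ages was not computed. A lack of overlap given below is therefore not read as particular to them either. In bulk tissue, fewer cells of a type and less RNA per cell cannot be told apart.

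Kdr, the main signalling receptor for VEGF-A, fell at both steps. At P5 it ranged from 43.3 to 51.8 CPM with a median of 47.2 in 14 libraries. The 14 P15 libraries ranged from 12.3 to 40.1 CPM with a median of 28.8, and the 18 adult libraries from 3.13 to 6.80 CPM with a median of 3.83. The 3 ranges did not overlap. The log2 change was -0.79 ± 0.11 (SE; adjusted p = 7.3e-09, edgeR) in P15 over P5 and -2.73 ± 0.13 (adjusted p = 2.2e-24) in adult over P15. Adult over P5 gave -3.52 ± 0.13 (adjusted p = 3.9e-31), and 0.484% of genes changed as much in size. P15 libraries spread widely in both crosses, and the lowest of each, 12.3 CPM in F1i and 13.4 CPM in F1r, were GC-high. P15 over P5 was -0.66 ± 0.09 without the 5 GC-high libraries (adjusted p = 2.1e-09, edgeR) and -1.02 ± 0.12 without the 6 GC-low ones (adjusted p = 4.4e-10).

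Flt1, the decoy-like receptor, kept most of its level, and gene counts do not separate its secreted from its membrane form. It ranged from 35.5 to 46.4 CPM at P5 with a median of 40.5. At P15 it ranged from 17.5 to 38.6 CPM with a median of 22.5, and in adults from 24.99 to 35.6 CPM with a median of 28.6. Each pair of ages overlapped. It fell in P15 over P5 (log2 -0.76 ± 0.08, adjusted p = 1.8e-11, edgeR) and rose in adult over P15 (0.30 ± 0.08, adjusted p = 0.00075), the only member to rise at that step. Adult over P5 gave -0.45 ± 0.07 (adjusted p = 2.8e-07), a size reached by 50.4% of genes. Flt1 was 19.6 to 38.6 CPM in the 5 GC-high P15 libraries and 17.5 to 28.5 CPM in the other 9, with overlap. Leaving the 5 out gave 0.51 ± 0.07 in adult over P15 (adjusted p = 3.1e-09, edgeR). Leaving the 6 GC-low ones out gave 0.15 ± 0.08 (adjusted p = 0.11), and the later rise was not called.

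Tek, the angiopoietin receptor, had its highest median at P15 and its lowest in adults. Its level was 19.2 to 26.6 CPM at P5 (median 21.7), 20 to 37.8 CPM at P15 (median 27.8) and 8.04 to 14.3 CPM in adults (median 11.7). Adult libraries lay below every younger library, while P5 and P15 overlapped. Tek rose by 0.29 ± 0.08 on the log2 scale in P15 over P5 (adjusted p = 0.00046, edgeR), changed by -1.24 ± 0.07 in adult over P15 (adjusted p = 9.9e-21) and by -0.95 ± 0.07 in adult over P5 (adjusted p = 6.2e-17). Pecam1, the junctional adhesion molecule, took a similar course. It was 20 to 27.8 CPM at P5 (median 26.2), 21.2 to 38.0 CPM at P15 (median 31.3) and 7.36 to 15.3 CPM in adults (median 13.9). Again the adults lay below every younger library, and the younger ages overlapped. Pecam1 rose by 0.21 ± 0.08 in P15 over P5 (adjusted p = 0.0098, edgeR), changed by -1.17 ± 0.07 in adult over P15 (adjusted p = 2.8e-19) and by -0.95 ± 0.07 in adult over P5 (adjusted p = 1.2e-16). The early rises were small beside other genes, since 70.1% of genes changed at least as much as Tek and 78.0% at least as much as Pecam1 in P15 over P5. Their calls depended on which P15 libraries entered. The 5 GC-high libraries had a median of 22.9 CPM for Tek and 24.1 CPM for Pecam1, against 28.9 and 31.95 CPM in the other 9. Without the GC-high libraries Tek gave 0.37 ± 0.08 (adjusted p = 3.8e-05, edgeR) and Pecam1 0.28 ± 0.07 (adjusted p = 0.00065). Without the GC-low libraries Tek gave 0.16 ± 0.09 (adjusted p = 0.087) and Pecam1 0.11 ± 0.09 (adjusted p = 0.275), and neither was called. The falls to the adult level passed under each of these settings.

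Nid1, the linker of laminin to collagen IV, fell at both steps with little spread. It ranged from 198 to 238 CPM at P5 (median 218.5), from 80.7 to 125 CPM at P15 (median 97.3) and from 17.2 to 24.7 CPM in adults (median 21.0). The ages did not overlap. The log2 change of Nid1 was -1.18 ± 0.05 in P15 over P5 (adjusted p = 4.7e-25, edgeR), -2.18 ± 0.06 in adult over P15 (adjusted p = 4.3e-35) and -3.36 ± 0.05 in adult over P5 (adjusted p = 1.2e-44), a 10.3-fold lower adult level. Fn1, the fibronectin gene, ranged from 148 to 180 CPM at P5 (median 162), from 34.0 to 90.1 CPM at P15 (median 44.6) and from 16.8 to 29.4 CPM in adults (median 19.9), also without overlap. The log2 change of Fn1 was -1.66 ± 0.10 in P15 over P5 (adjusted p = 6.7e-20, edgeR), -1.32 ± 0.11 in adult over P15 (adjusted p = 7.9e-16) and -2.98 ± 0.10 in adult over P5 (adjusted p = 2.6e-31). How its fall divided between the steps depended on the GC-high P15 libraries. These 5 held 52.5 to 90.1 CPM of Fn1 and the other 9 held 34.0 to 49.4 CPM, without overlap. With the 9 alone the Fn1 change was -2.03 ± 0.06 in P15 over P5 (adjusted p = 2.3e-30, edgeR) and -0.93 ± 0.07 in adult over P15 (adjusted p = 2.2e-17). Without the 6 GC-low libraries it was -1.39 ± 0.10 (adjusted p = 7.4e-17) in P15 over P5 and -1.58 ± 0.10 (adjusted p = 1.3e-18) in adult over P15. The part of GC content in the Fn1 level was not tested.

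**Figure D1:**
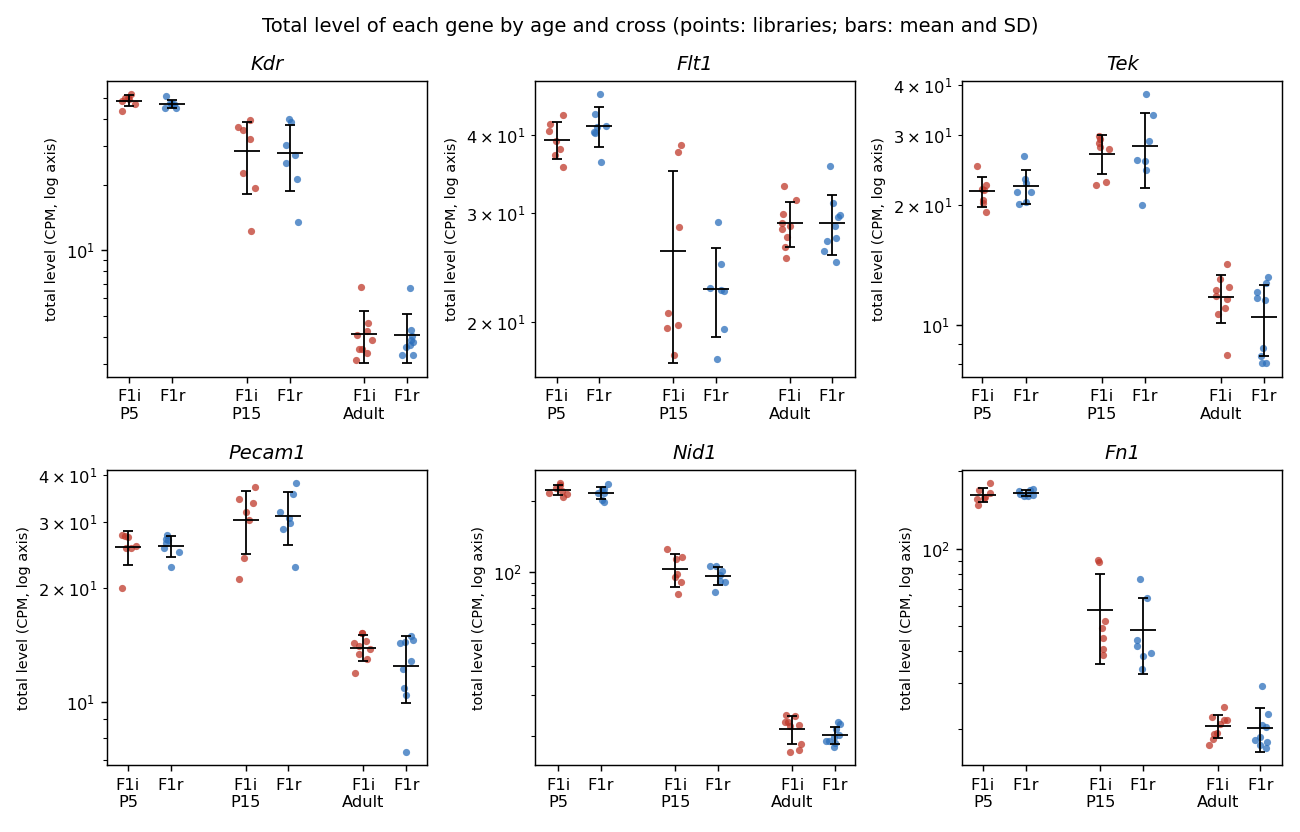
Total level of each gene (CPM on a log axis) in every library, with F1i left of F1r at P5, P15 and adult; points are libraries and bars the mean and SD. Kdr, Nid1 and Fn1 separate fully by age, Tek and Pecam1 are lowest in adults, and the P15 libraries of Kdr, Flt1 and Fn1 spread widely. The share of all genes that separate in this way was not computed.

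**Figure D2:**
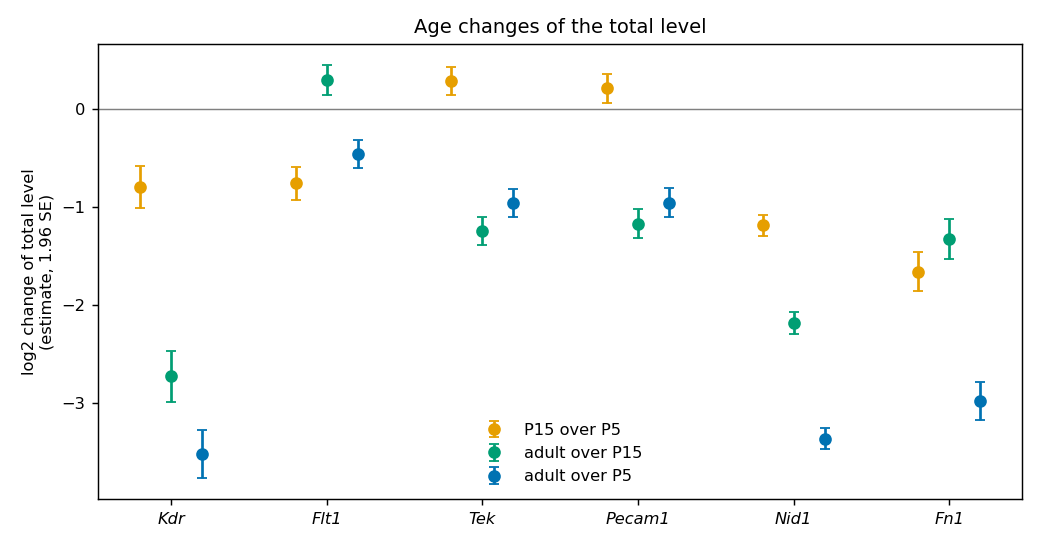
The log2 change of the total level of each gene for the 3 pairs of ages, with approximate 95% intervals from edgeR's fit. Flt1 alone is above 0 in adult over P15, and Tek and Pecam1 alone are above 0 in P15 over P5; the rises of all 3 genes were not called without the GC-low P15 libraries.

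Ligands and partners of these receptors moved unequally. Of 8 VEGF ligands and coreceptors, 6 were tested in adult over P5, and 4 fell while 2 rose (edgeR, median log2 change -0.92). Vegfa, the ligand of Kdr and Flt1, fell by 0.72 on the log2 scale, and the coreceptors Nrp1 and Nrp2 fell by 1.12 and 2.06. Flt4, best known from lymphatic vessels, fell by 1.55, whereas Pgf and Vegfb, which bind Flt1 and not Kdr, rose by 1.32 and 0.30. Of 5 angiopoietin and Tie genes, 4 were tested and all 4 fell (median -1.37). They were the ligands Angpt1 (-0.28) and Angpt2 (-1.81), the Tek partner Tie1 (-1.73) and the endothelial phosphatase Ptprb (-1.01), which acts on Tek. Angpt2, the ligand that loosens vessels, had at most 2.71 CPM in any library. Tie1 fell already in P15 over P5 (-1.57), where Tek gave 0.29, and Ptprb stood at -0.07 there (adjusted p = 0.39, edgeR).

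Of 18 further basement membrane genes, 16 were tested in adult over P5, and 14 fell while 2 rose (edgeR, median -1.71). The collagen IV chains Col4a1, Col4a2 and Col4a5 changed by -2.10, -1.68 and -1.46 on the log2 scale. Laminin chains fell by 1.75 (Lama1), 3.07 (Lama4), 1.02 (Lama5), 1.17 (Lamb1), 0.17 (Lamb2) and 1.33 (Lamc1). The proteoglycans Hspg2 and Agrn fell by 1.82 and 1.81, and the collagens Col15a1 and Col18a1 by 2.10 and 1.78. Nid2, the other nidogen, changed by -3.11 ± 0.31 (adjusted p = 1.7e-15) and had no more than 2.78 CPM in any P5 library. Sparc, a matrix protein that binds collagen, rose by 1.67, and the laminin chain gene Lama2 rose by 0.31 ± 0.11 (adjusted p = 0.0084, edgeR). Among 10 fibronectin receptor and crosslinking genes, 9 were tested, of which 5 fell and 3 rose (median -0.18). Itga5, the integrin chain of the classical fibronectin receptor, fell by 2.94, and its partner Itgb1 fell by 0.49. Itga8, Itga9 and Itgb3 fell by 0.75, 0.18 and 0.32. Sdc4, a syndecan that binds fibronectin, rose by 2.68, the integrin chain gene Itgav rose by 0.59, and the crosslinking enzyme gene Tgm2 rose by 0.56. The list medians stand beside -0.0047 for all genes, and the lists too were picked with earlier results of these data known.

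Most other endothelial markers were lower in adults, but not all. Of 23, 20 were tested in adult over P5, with 16 lower and 4 higher (edgeR, median -1.23). Cd93, the transcription factor gene Ets1 and the junctional cadherin gene Cdh5 fell by 3.02, 2.01 and 1.76, and Ly6a rose by 1.79. Cdh5 changed by -1.73 in P15 over P5, where Pecam1 gave 0.21, and its -0.02 in adult over P15 had an adjusted p of 0.86 (edgeR). Of 14 blood-brain barrier genes, 8 fell and 4 rose in adult over P5 (median -0.48), and the tight junction gene Cldn5 fell by 2.62. The 21 endothelial list genes in the tables summed to 380 to 417 CPM at P5, 377 to 529 CPM at P15 and 236 to 336 CPM in adults.

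Markers of other cell types moved with age beside these genes. Of 14 markers of mural cells (pericytes and smooth muscle), 13 were tested, 8 fell and 4 rose in adult over P5 (median -1.40). Their sum was 380 to 440 CPM at P5, 349 to 474 CPM at P15 and 157 to 197 CPM in adults. Of 11 tested fibroblast and meningeal markers, 4 were lower and 6 higher, and they summed to 48.3 to 59.8 CPM at P5, 60.4 to 99.2 CPM at P15 and 41.2 to 60.3 CPM in adults. Of 4 tested platelet and leukocyte markers, 2 were lower and 2 higher, and they summed to 55.6 to 67.2 CPM at P5, 45.1 to 61.3 CPM at P15 and 33.2 to 58.0 CPM in adults. The platelet genes Pf4, Ppbp and Gp9 were not analysed here. The 3 blood genes measured, Hbb-bt, Hbb-bs and Alas2 of red cells, summed to 34.0 to 72.03 CPM at P5, 102 to 193 CPM at P15 and 21.2 to 66.6 CPM in adults, so the P15 libraries lay above all others. In adult over P5, 2 of these 3 were lower and 0 higher. Myelin markers summed to 1757 to 2937 CPM at P5, 17320 to 30090 CPM at P15 and 7148 to 10970 CPM in adults. The part of these cells in the levels of the 6 genes was not tested.

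**Figure D3:**
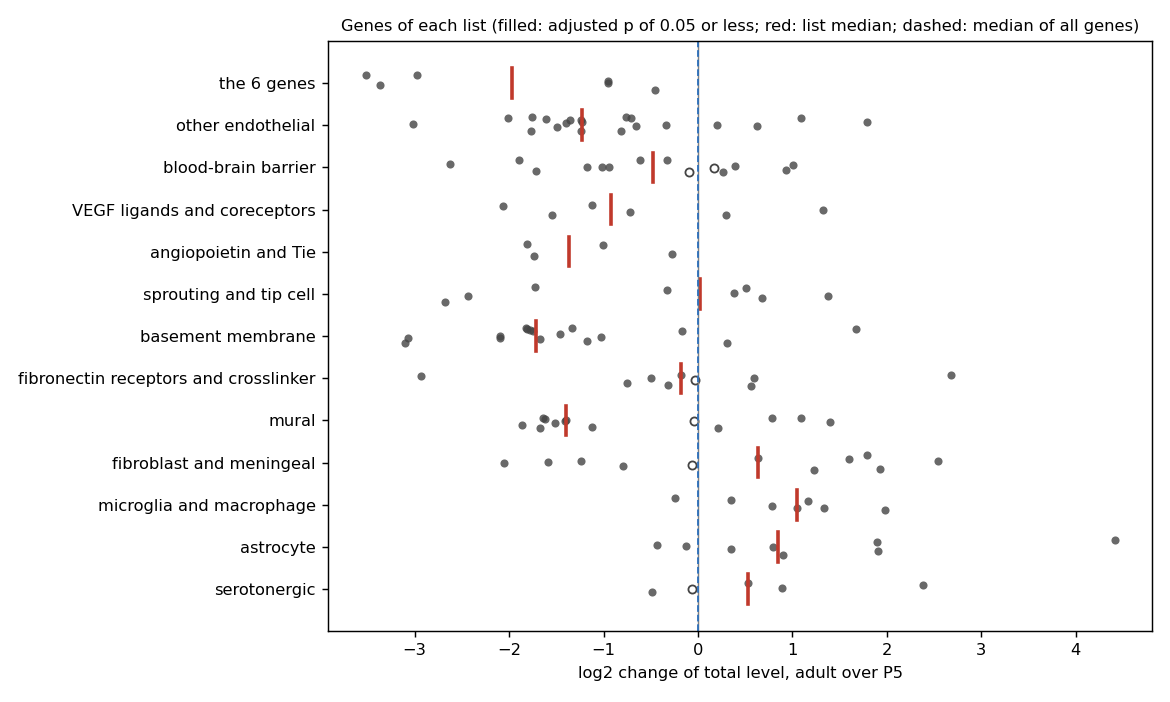
The log2 change of the total level in adult over P5 for every tested gene of each list; filled points had an adjusted p of 0.05 or less (edgeR), red bars are list medians and the dashed line is the median of all genes. The 6 genes and the angiopoietin list lie below 0, and the basement membrane list lies mostly below 0, with Sparc its highest point at 1.67.

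The totals of the 6 genes showed no cross difference that passed the test. F1i over F1r called 0 of 6 genes at P5 (edgeR), where 1.17% of 12919 genes were called, 0 of 6 at P15, where 0.0467% of 12850 were called, and 0 of 6 in adults, where 0.111% of 13516 were called. With all libraries no member, 0 of 6, had an unadjusted p below 0.05 at any age. DESeq2 called 0 of 6 at each age, with no adjusted p for Kdr in adults. With the second adult label number as a replicate block, 77 genes in place of 15 were called in adults, and still 0 of 6 members. The largest estimates were for Fn1 and Flt1 at P15. Fn1 had a median of 49.4 CPM in F1i and 41.9 CPM in F1r, and a fitted log2 difference of 0.29 ± 0.23 with a 95% interval of -0.17 to 0.75. Flt1 had a median of 20.7 CPM in F1i and 22.5 CPM in F1r, while the fitted difference was 0.24 ± 0.19 with an interval of -0.13 to 0.60, the means being 26.1 CPM in F1i and 22.7 CPM in F1r. Without the GC-high libraries those differences were 0.15 ± 0.10 for Fn1 and 0.06 ± 0.14 for Flt1, with neither called. Without the GC-low libraries they were 0.64 ± 0.21 for Fn1 (adjusted p = 0.385, edgeR) and 0.53 ± 0.19 for Flt1 (adjusted p = 0.41), again with neither called. In adults Pecam1 averaged 13.9 ± 1.07 CPM in F1i and 12.5 ± 2.52 CPM in F1r (SD, n = 9 each; log2 0.19 ± 0.11, adjusted p = 0.62, edgeR). Without the GC-high adult libraries the adult differences were 0.23 ± 0.09 for Nid1, 0.30 ± 0.16 for Pecam1 and 0.25 ± 0.21 for Kdr. Without the GC-low ones they were 0.02 ± 0.11, 0.08 ± 0.10 and 0.14 ± 0.20 in the same order, and none was called in either fit. At P5 the 6 differences lay between -0.06 and 0.06, and the interval for Fn1 was -0.08 to 0.06.

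Whether the cross difference changed with age was tested as well, and it called 0 of 6 members in each pair of ages (edgeR), with 0.0147% of genes called in P15 minus P5, 0.0367% in adult minus P15 and 0.0% in adult minus P5. In adult minus P5, 574 genes had an unadjusted p below 0.05, of which 0 were members, and DESeq2 called 3 genes. In P15 minus P5 the Fn1 estimate was 0.30 ± 0.21, with an interval of -0.10 to 0.71.

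Kdr, Pecam1, Nid1 and Fn1 showed allele differences at 1 or more ages. The strain effect is log2(CAST/C57), with equal weight for each cross. It called 4 of 6 genes at P5 (Kdr, Pecam1, Nid1 and Fn1), where 58.4% of 12070 genes were called (edgeR). At P15 it called 3 of 6 (Kdr, Pecam1 and Nid1), where 58.4% of 11996 were called, and in adults 3 of 6 (Pecam1, Nid1 and Fn1), where 67.8% of 12675 were called. Allele differences were therefore common among all genes. Flt1 and Tek were called at none of the 3 ages. The CAST share given below is the CAST percent of both alleles. Counts limit it in single libraries, and the 95% Wilson interval, which covers counting error only, spanned 20.3 to 38.4 percentage points for Kdr in adults and 4.72 to 6.95 for Fn1 at P5.

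Fn1 changed sides between P5 and adult. Its CAST share was 50.7% to 56.9% at P5 with a median of 53.9%, and 14 of 14 libraries lay above 50%. At P15 it was 40.7% to 53.4% with a median of 48.7% (4 of 14 above 50%), and in adults 34.1% to 46.5% with a median of 40.9% (0 of 18 above 50%). Adult and P5 libraries did not overlap. The strain effect on Fn1 was 0.21 ± 0.03 at P5 (adjusted p = 9.3e-10, edgeR), -0.08 ± 0.05 at P15 (adjusted p = 0.19) and -0.53 ± 0.05 in adults (adjusted p = 1.4e-12). Both crosses showed it, with adult means of 40.5% ± 2.82 in F1i and 41.7% ± 3.07 in F1r (SD, n = 9 each) and P5 means of 54.1% ± 2.21 in F1i and 53.3% ± 1.47 in F1r (SD, n = 7 each). As allele levels, CAST Fn1 averaged 8.36 ± 1.32 CPM and C57 Fn1 12 ± 1.99 CPM in adults (SD, n = 18). At P5 CAST averaged 87.6 ± 5.82 CPM and C57 75.6 ± 3.96 CPM (SD, n = 14). The mean P5 level was 10.5 times the adult level for the CAST allele and 6.29 times for the C57 allele.

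Nid1 leaned to C57 at each age, and more so in older mice. Its CAST share was 44.2% to 50.0% at P5 (median 47.3%), 37.0% to 46.5% at P15 (median 41.9%) and 32.4% to 43.8% in adults (median 38.6%). All 14 P15 and all 18 adult libraries lay below 50%, as did 13 of 14 at P5, with the remaining one at 50%. Adult and P5 libraries did not overlap. The strain effect on Nid1 was -0.17 ± 0.02 at P5 (adjusted p = 1.8e-08, edgeR), -0.48 ± 0.04 at P15 (adjusted p = 1.2e-15) and -0.69 ± 0.05 in adults (adjusted p = 1.4e-15). In adults CAST Nid1 averaged 7.98 ± 1.15 CPM and C57 Nid1 12.9 ± 1.56 CPM (SD, n = 18). The P5 level was 12.9 times the adult level for CAST and 9.01 times for C57.

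Kdr followed another course. Its CAST share was 39.2% to 49.4% at P5 (median 44.9%, 0 of 14 above 50%), 30.4% to 50.9% at P15 (median 41.3%, 1 of 14 above) and 32.0% to 70.8% in adults (median 52.8%, 11 of 18 above). Adult values spread over nearly all of both younger ranges, at totals of 21 to 89 reads a library. The strain effect on Kdr was -0.29 ± 0.05 at P5 (adjusted p = 7.3e-07, edgeR) and -0.53 ± 0.07 at P15 (adjusted p = 1.7e-09). In adults it was 0.19 ± 0.11 (adjusted p = 0.12, edgeR), with a 95% interval of -0.03 to 0.41. Mean adult shares were 54.0% ± 7.27 in F1i and 52.0% ± 10.4 in F1r (SD, n = 9 each). The P5 level of Kdr was 9.9 times the adult level for CAST and 13.5 times for C57.

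Pecam1 leaned to CAST at each age. Its share was 45.1% to 60.1% at P5 (median 54.5%, 11 of 14 above 50%), 47.1% to 63.0% at P15 (median 54.6%, 13 of 14 above) and 29.0% to 65.2% in adults (median 54.0%, 14 of 18 above). The ranges of the 3 ages overlapped. The strain effect on Pecam1 was 0.22 ± 0.07 at P5 (adjusted p = 0.0035, edgeR), 0.27 ± 0.07 at P15 (adjusted p = 0.00044) and 0.22 ± 0.08 in adults (adjusted p = 0.013). DESeq2 did not call it at P5 (adjusted p = 0.066), and neither did limma on the log2 ratio in adults (adjusted p = 0.064). Without the 9 GC-high adult libraries the adult value was 0.12 ± 0.10 (adjusted p = 0.28, edgeR).

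Flt1 had estimates near equal expression of the alleles, and those of Tek leaned slightly to C57 without being called. Flt1 had a mean CAST share of 48.7% ± 4.28 at P5 and 51.3% ± 4.79 at P15 (SD, n = 14 each) and of 49.9% ± 5.09 in adults (SD, n = 18), and its adult strain effect of 0.01 ± 0.05 had a 95% interval of -0.09 to 0.11. At P15 the Flt1 strain effect was 0.07 ± 0.07, and 0.17 ± 0.09 without the GC-high and -0.05 ± 0.09 without the GC-low libraries, none called. For Tek the mean share was 48.9% ± 3.55 at P5 and 48.0% ± 4.4 at P15 (SD, n = 14 each) and 47.4% ± 5.81 in adults (SD, n = 18). Of the 18 adult libraries, 13 lay below 50% for Tek. The strain effect on Tek was -0.05 ± 0.06 at P5 (adjusted p = 0.50, edgeR), -0.14 ± 0.07 at P15 (adjusted p = 0.067) and -0.14 ± 0.07 in adults (adjusted p = 0.076). Its approximate 95% interval was -0.27 to -0.009 at P15 and -0.27 to -0.002 in adults. The adult value was -0.19 ± 0.08 without the GC-high adult libraries (adjusted p = 0.0504, edgeR) and -0.08 ± 0.09 without the GC-low ones (adjusted p = 0.485). With a TMM factor for each allele column the adult value for Tek was -0.16 (adjusted p = 0.037, edgeR), which passed the threshold.

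**Figure D4:**
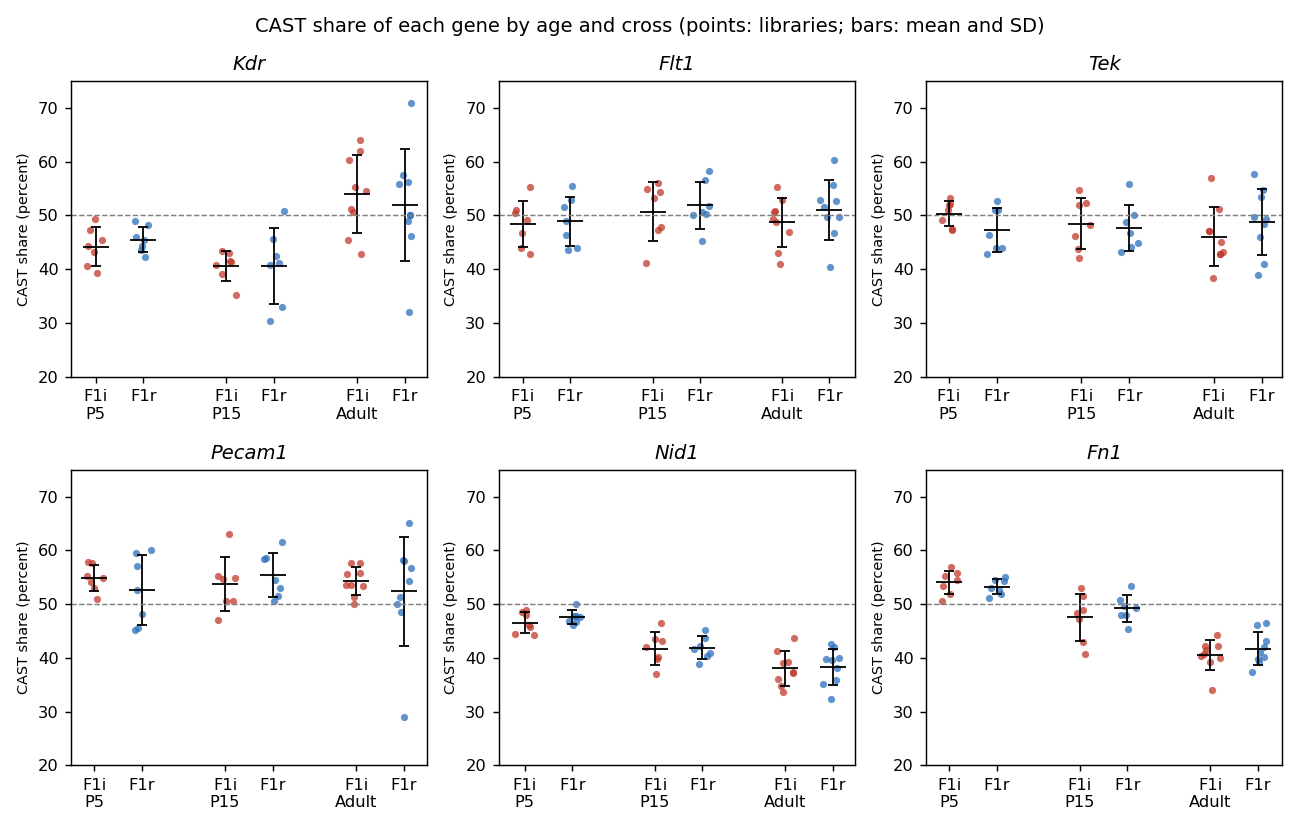
CAST share of each gene (percent of both alleles) in every library, F1i left of F1r at P5, P15 and adult; points are libraries, bars the mean and SD, and the dashed line is equal expression. Fn1 lies below the line in all 18 adult libraries and above it in 14 of 14 P5 libraries, and Nid1 lies further below it in adults than at P5.

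The change of the allele ratio with age was tested directly, and it passed for Fn1, Nid1 and Kdr in all 3 pairs of ages. In P15 minus P5 that was 3 of 6 members, where 18.7% of 12430 genes were called (edgeR). In adult minus P15 it was 3 of 6, where 15.5% were called, and in adult minus P5 3 of 6, where 29.6% were called. Fn1 changed by -0.29 ± 0.06 in P15 minus P5 (adjusted p = 4.0e-05, edgeR), by -0.46 ± 0.07 in adult minus P15 (adjusted p = 2.3e-07) and by -0.74 ± 0.06 in adult minus P5 (adjusted p = 3.0e-18). A change as large as that of Fn1 in adult minus P5 was seen in 2.17% of genes. Nid1 changed by -0.31 ± 0.04 in P15 minus P5 (adjusted p = 4.7e-08, edgeR), by -0.21 ± 0.06 in adult minus P15 (adjusted p = 0.0092) and by -0.52 ± 0.05 in adult minus P5 (adjusted p = 1.5e-12), where 4.95% of genes changed as much. Kdr changed in opposite directions at the steps. It gave -0.24 ± 0.08 in P15 minus P5 (adjusted p = 0.036, edgeR), 0.72 ± 0.13 in adult minus P15 (adjusted p = 1.4e-05) and 0.48 ± 0.12 in adult minus P5 (adjusted p = 0.0011). The early Kdr change was not called by limma on the log2 ratio (-0.25, adjusted p = 0.19), nor by edgeR without the 5 GC-high P15 libraries (-0.25, adjusted p = 0.072). The adult minus P15 change of Nid1 was not called without the GC-low P15 libraries (-0.19, adjusted p = 0.0515, edgeR) or without the GC-high adult ones (-0.19, adjusted p = 0.079). A change as large as the later one of Kdr was seen in 1.07% of genes. For the other members the 95% interval of adult minus P5 was -0.21 to 0.21 for Pecam1, -0.07 to 0.24 for Flt1 and -0.27 to 0.10 for Tek.

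**Figure D5:**
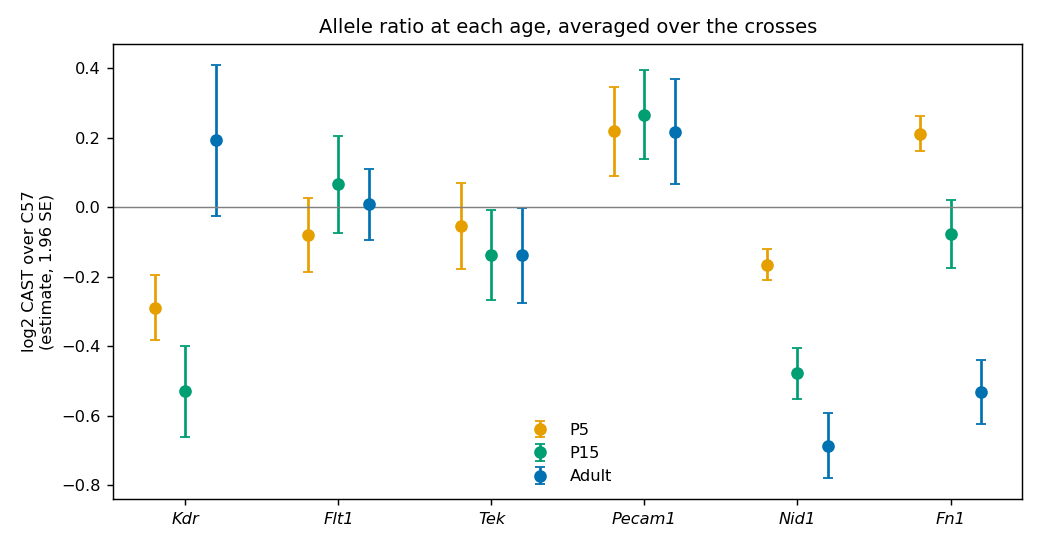
The strain effect, log2(CAST/C57), on each gene at P5, P15 and adult, with equal weight for each cross and with approximate 95% intervals from edgeR's fit. Fn1 and Nid1 step down with age, Kdr is higher in adults than at P15, and Flt1, Tek and Pecam1 keep overlapping intervals.

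The reciprocal crosses tell parent of origin from strain. The parental effect, log2(CAST/C57) in F1i minus that in F1r, divided by 2, called 0 of 6 genes at P5, where 2.71% of genes were called (edgeR). It called 0 of 6 at P15, where 0.742% were called, and 0 of 6 in adults, where 2.71% were called. With all libraries 0 of 6 had an unadjusted p below 0.05 at each age, and DESeq2 called 0 of 6. With all libraries, estimates ran from -0.12 for Tek in adults (95% interval -0.26 to 0.02) to 0.08 for Tek at P5 (interval -0.04 to 0.20). The adult Tek estimate was -0.23 ± 0.08 without the GC-high adult libraries (adjusted p = 0.22, edgeR) and -0.01 ± 0.09 without the GC-low ones. For Kdr in adults those fits gave -0.13 ± 0.15 and 0.12 ± 0.13, and none of these was called. In adults the Tek share averaged 46.1% ± 5.46 in F1i and 48.8% ± 6.16 in F1r (SD, n = 9 each). The narrowest intervals were those of Nid1 at P5, -0.07 to 0.02, and of Fn1 at P5, -0.03 to 0.08.

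Levels of some members varied together among the P15 libraries. The 15 pairs of genes at 3 ages gave 45 relations of log2 CPM with cross means removed, tested two-sided by permuting libraries within a cross, with adjustment over the 45. By Pearson's r, 5 relations passed at P15, 0 at P5 and 0 in adults. How many pairs among all genes would pass was not computed, so this count cannot be read as particular to these genes. P15 levels also differed between the GC classes. Medians in GC-high and GC-low libraries were 19.4 and 36.2 CPM for Kdr, 22.9 and 29.5 CPM for Tek, and 24.1 and 34.1 CPM for Pecam1. Kdr and Pecam1 had r = 0.97 and rho = 0.97 over 14 libraries (permutation p = 1e-05, the smallest the permutations can give, adjusted p = 0.00045), and r = 0.93 without the 2 libraries farthest from the median of Kdr. Kdr and Tek had r = 0.86 and rho = 0.86 (permutation p = 6e-05, adjusted p = 0.0014), and r = 0.79 without 2 libraries. Tek and Pecam1 had r = 0.87 and rho = 0.82 (permutation p = 9e-05, adjusted p = 0.0014), and r = 0.83 without 2. Over the 14 libraries these 3 relations link the endothelial genes Kdr, Tek and Pecam1, but not Flt1, another endothelial receptor gene. At P15 Flt1 had r = 0.17 with Kdr, -0.05 with Tek and 0.06 with Pecam1, and none of these passed. Kdr and Nid1 had r = 0.76 and rho = 0.75 (permutation p = 0.0029, adjusted p = 0.026), and r = 0.74 without 2. Flt1 and Fn1 had r = 0.83 and rho = 0.76 (permutation p = 0.0011, adjusted p = 0.012), and r = 0.68 without 2. These last pairs missed the threshold by rho, with adjusted permutation p of 0.054 for Kdr and Nid1 and 0.060 for Flt1 and Fn1. Kdr and Fn1 had r = -0.21 and rho = -0.07 (permutation p = 0.49, adjusted p = 0.88).

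The relations were repeated in the 9 P15 libraries that were not GC-high, which still differed in GC deviation, by exact permutation adjusted over 15 pairs. Kdr and Pecam1 had r = 0.89 and rho = 0.95 (exact permutation p = 0.0049, adjusted p = 0.037), and Kdr and Nid1 had the highest r, 0.90, and rho = 0.87 (exact permutation p = 0.00035, adjusted p = 0.0052). Kdr and Tek had r = 0.78, and Tek and Pecam1 had r = 0.88, both with an adjusted exact permutation p of 0.064 by r. By rho both passed, at 0.95 (adjusted exact permutation p = 0.016) for Kdr and Tek and 0.90 (adjusted exact permutation p = 0.037) for Tek and Pecam1. The relation of Flt1 and Fn1 did not pass within these 9 (r = 0.69, exact permutation p = 0.060, adjusted p = 0.11). Here Flt1 had r = 0.50 with Kdr, 0.41 with Tek and 0.25 with Pecam1, above its values over all P15 libraries, and none passed. Flt1 and Nid1 had r = 0.72 and rho = 0.78 (adjusted exact permutation p = 0.098 and 0.054). Tek and Nid1 had r = 0.65 and rho = 0.80, and passed by rho only (adjusted exact permutation p = 0.016). The 5 GC-high libraries are too few for a value of their own.

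The genes whose levels tracked each member most closely over all 46 libraries were taken from 11504 genes with a mean of 5 CPM or more. These Pearson correlations are descriptions, since ages form separate clusters and the libraries share depth and base composition. Nid1 ran closest to Akap5 (r = 0.991), Pdgfra (0.988) and Npnt (0.985). Kdr ran closest to Pdgfra (0.982), Slc38a5 (0.978) and Uaca (0.976), and Fn1 to Col4a1 (0.982), Dpysl4 (0.980) and Marcksl1 (0.979). Tek was closest to Stx2 (0.960), Ppfibp1 (0.952) and Galnt11 (0.951), and Pecam1 to Igfbp7 (0.949), Esam (0.942) and Ikbkb (0.930). Flt1 was closest to Srrm2 (0.883), Zfhx4 (0.881) and Map4k2 (0.874), the lowest top values of the 6. Among the members themselves, Kdr and Nid1 stood at 0.974, Tek and Pecam1 at 0.920, and Flt1 and Tek at -0.02.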

How the data were processed

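RNA from the dorsal raphe nucleus was sequenced as 50 bp single-end reads from TruSeq libraries, per the labels' protocols. The submitters' processing notes name Novoalign and mm9. Other alignment and counting settings are not given in the sources used here. The authors deposited whole-number counts of reads per gene and allele (C57 and CAST), and 92 columns of 46 libraries were used. Symbols were matched by Ensembl ID for 14969 of 15499 genes. The 6 genes and all lists were chosen with earlier results of these data known.

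Totals (C57 plus CAST) were tested with edgeR 4.0.16 in R 4.3.3, using TMM, filterByExpr, the quasi-likelihood test and Benjamini-Hochberg adjustment over all genes tested, with 6 groups of cross and age. CPM values use the counted reads of a library without TMM. Cross effects were fitted within an age. Allele effects used a column per library and allele, a term per library and genes whose summed count averaged 20 or more. SE and 95% intervals are approximate. Alternatives were DESeq2 1.42.0, limma 3.58.1, other scaling, no count filter, a replicate block and summed adult libraries. Genes named from lists were the 4 with the smallest p in adult over P5, or every gene called for the VEGF, angiopoietin, basement membrane and fibronectin lists, plus the 3 most alike each member.

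Label numbers shared by the crosses did not pair the P5 or P15 libraries, since their deviations from the group means correlated at -0.08 to 0.05 and -0.32 to 0.66. At P15 only the numbers 1 and 6 were above 0.1, at 0.66 and 0.57, and the others were below 0. The second adult number gave 0.76, 0.53 and 0.46, all above 0.1. It was read as a pairing of adult libraries, from the data and not from the labels' own words. Most adult libraries with second number 1 were GC-low, and most with 2 or 3 were GC-high. The adult pairing and the GC deviation therefore cannot be told apart. Depth ranged from 3692778 to 13085952 counted reads a library, so a share from few reads is the least precise.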

Additional observations from a re-analysis of the deposited data

Results flagged for a closer look

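In adults, Kdr and Pecam1 had single libraries far from the rest of their group. Kdr reached 6.80 CPM (89 reads) in the F1i library with label numbers 3 and 3, where the other 8 lay between 3.13 and 4.63 CPM, and 6.70 CPM in the F1r library with numbers 6 and 2, where the other 8 lay between 3.31 and 4.32 CPM. The Pecam1 CAST share was 29.0% in the F1r library with numbers 6 and 1 (93 reads, 95% Wilson interval 20.8% to 38.9%), where the others lay between 48.6% and 65.2%. The Kdr share in that library was 70.8% (48 reads, interval 56.8% to 81.8%). Fn1 had a CAST share of 34.1% in the F1i library with numbers 3 and 1 (267 reads, interval 28.7% to 39.96%), below 39.2% to 44.2% in the others. The total of Fn1 was 29.4 CPM in the F1r library with numbers 7 and 3, above 16.8 to 22.8 CPM in the others. At P5, Pecam1 was 20 CPM (102 reads) in F1i replicate 6, below 25.6 to 27.7 CPM in the other 6. These are 6 of 72 gaps examined, and chance sets apart about 1 group in 20.

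The allele ratio differed between ages in 9 tests of its change (edgeR). On the log2 scale, Fn1 gave -0.29 in P15 minus P5, -0.46 in adult minus P15 and -0.74 in adult minus P5. Nid1 gave -0.31, -0.21 and -0.52 over those pairs. Kdr gave -0.24, 0.72 and 0.48.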

How the results depend on the processing

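For the 6 genes, 108 fitted values were recomputed under the alternatives, which gave 737 values. Of these, 726 kept their side of the threshold, 10 lost their call, 1 gained one and 0 called values turned direction. The 726 include 31 uncalled values that changed sign. They also include fits that left out libraries of an age outside the pair compared, where a value could change little. For example, the Fn1 ratio change in adult minus P5 stayed at -0.74 without the GC-high or the GC-low P15 libraries. The calls lost were the P5 strain effect of Pecam1 with DESeq2 (0.22, adjusted p = 0.066), its adult strain effect with limma (0.19, adjusted p = 0.064) and without the GC-high adult libraries (0.12), and the P15 minus P5 ratio change of Kdr with limma (-0.25, adjusted p = 0.19) and without the GC-high P15 libraries (-0.25, adjusted p = 0.072). The Nid1 ratio change in adult minus P15 was lost without the GC-low P15 libraries (-0.19) and without the GC-high adult ones (-0.19). Without the GC-low P15 libraries the early rises of Tek (0.16) and Pecam1 (0.11) and the late rise of Flt1 (0.15) were lost. The call gained was the adult strain effect of Tek with a TMM factor for each allele column (-0.16, adjusted p = 0.037). The cause was not tested. All 6 calls in adult over P5 held under each alternative run, including the replicate block and DESeq2.

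Counts over all genes moved more. The adult cross effect called 15 genes, against 77 with the second label number as a replicate block, 306 with adult libraries summed by the first number, 53 with DESeq2, 9 without the GC-high adult libraries and 53 without the GC-low ones, and 0 members in each. With the replicate block, 156 genes were called at P5, 7 at P15 and 369 for the adult parental effect, and the pairing changed no other call of a member. DESeq2 called 4, 12 and 3 genes for the change of the cross effect in P15 minus P5, adult minus P15 and adult minus P5. It called 120 genes for the parental effect at P5, in place of 327, and 138 in adults, in place of 344, where limma called 184 and the fit without GC-low adult libraries 81. The ratio change in adult minus P15 called 1043 genes without the GC-low P15 libraries, in place of 1923. Settings that leave out libraries by GC deviation, among them the adult F1i library with numbers 1 and 1 (r = -0.79), whose removal changed 0 member calls, were chosen after seeing the data. Depth limits the adult share of Kdr most, at 21 to 89 reads a library.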

Other observations

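Sprouting and tip cell genes divided evenly, with 4 of 8 tested lower and 4 of 8 higher in adult over P5 (edgeR, median log2 change 0.02). Dll4, the Notch ligand of tip cells, fell by 2.68, Pdgfb, which recruits pericytes, by 2.44 and the semaphorin receptor gene Plxnd1 by 1.73. Apln, the apelin peptide gene, rose by 1.37. Among blood-brain barrier genes, the amino acid transporter Slc7a5 fell by 1.72, the junction gene Cgn by 1.18 and the thyroid hormone transporter Slco1c1 by 1.02. In the mural list, with 8 of 13 lower and 4 of 13 higher, Rgs5 gave -1.40, Notch3 -1.41, Cspg4 -1.67 and Pdgfrb -1.12. The genes that rose there were Myh11 (1.40), Acta2 (1.09), Tagln (0.79) and Vtn (0.21), named after their values were seen. In the fibroblast list Mgp and Dcn rose by 2.55 and 1.93, whereas Bgn and Col1a2 fell by 1.59 and 1.24. Microglial and macrophage markers were mostly higher, with 6 of 7 higher and 1 of 7 lower, and Tmem119 rose by 1.98.

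Allele ratios of other basement membrane genes also moved with age. The ratio changed in adult minus P5 for 7 of 15 tested, 4 upward and 3 downward (edgeR), where 29.6% of all genes were called. Sparc had a log2(CAST/C57) of -0.26 at P5, while P15 gave 0.05 and adults 0.06, with a change of 0.31 ± 0.02 in adult minus P5 (adjusted p = 1.2e-26, edgeR). Col18a1 stood at -0.89 at P5, -0.37 at P15 and -0.31 in adults, a change of 0.58 ± 0.12 (adjusted p = 9.1e-05). Col4a2 stood at 0.34 at P5, 0.18 at P15 and 0.11 in adults, a change of -0.22 ± 0.03 (adjusted p = 1.7e-09). Lama2 leaned to C57 at each age, with -1.07, -1.06 and -1.58 at P5, P15 and in adults. For Itgb3, a fibronectin receptor chain outside these 15 genes, the values were -1, -0.85 and -1.10 in the same order. No test of a change with age is given here for Lama2 or Itgb3, and the genes named are only some of those tested.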
